A study of Mus musculus with 15 samples.

Results

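The glucocorticoid receptor gene Nr3c1 and 9 genes that the receptor is known to induce were followed in liver RNA-seq of mice given water or ethanol. The 10 genes were chosen by name, with earlier results of these data known: Nr3c1, Fkbp5, Tsc22d3, Zbtb16, Dusp1, Sgk1, Mt1, Mt2, Klf9 and Errfi1. Each had 1 row among the 16330 genes listed, and all 10 passed the filter on low values that left 13570 genes for testing. The labels give luciferase (a light-emitting reporter enzyme, taken here as the control) or LbNOX (a water-forming NADH oxidase from bacteria, which regenerates NAD+) as the genotype. Mice were gavaged with water or with ethanol, and livers were collected after 6 h. This gave 5 luciferase livers after water (libraries M1 to M5), 4 LbNOX livers after water (M6 to M9), 3 luciferase livers after ethanol (M10 to M12) and 3 LbNOX livers after ethanol (M13 to M15). The ethanol dose, the strain, sex and age of the mice and the way the construct reached the liver are not given in the labels used here. The design text names wild type or ChREBP mice, whereas the titles name luciferase and LbNOX; the titles were followed, and whether any group carried a change in ChREBP is not settled here.

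The glucocorticoid receptor is a nuclear receptor that waits in the cytoplasm in a complex with Hsp90 and its co-chaperones. When corticosterone, the main glucocorticoid of mice, binds it, the receptor enters the nucleus and binds DNA at palindromic elements made of hexamers spaced by a few bases. In liver it is known for inducing genes of glucose production and amino acid breakdown and for lowering inflammatory genes, and several of its targets also respond to cyclic AMP, growth factors or metals.

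Depth was 10.6 to 23.7 M reads per library. Replicate pairs correlated at 0.919 to 0.961 across genes, and no pair agreed within sampling noise. No label ties each library to its own animal, and p-values therefore measure only the spread between libraries, which may be technical. Hepatocyte markers, of which 7 of 8 were in the table, summed to 705588 to 846165 normalized counts in luciferase livers after water and 731846 to 886511 after ethanol. In LbNOX livers they summed to 533203 (M8) to 969654 after water and 622014 to 770989 after ethanol, so the tissue label was borne out. Markers of Kupffer cells and macrophages, 7 of 8 in the table and none under 10 in every library, summed to 1317 to 3364 and 1102 to 1467 in the luciferase livers after water and ethanol, and to 1371 to 2855 and 1330 to 2433 in the LbNOX livers after water and ethanol. Their highest sums were in M3 and M8, which also had the lowest mean correlation with their own groups. Among the 9 cell marker lists, 1 gene passed in the luciferase ethanol comparison (the lymphocyte gene Nkg7, lower). The part of these cells in the values below was not tested, and in bulk RNA fewer cells of a type and less RNA per cell cannot be told apart.

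Nr3c1, the receptor gene itself (GRCm38 chromosome 18, 39410545 to 39519421, minus strand), was read at similar levels in the 4 groups. Its normalized counts in luciferase livers after water were 1315, 1662, 2167, 1954 and 1385, and after ethanol 1547, 1574 and 1448. LbNOX livers had 1483, 1766, 1864 and 1369.5 after water and 1443, 1436 and 1833 after ethanol. The groups overlapped in every pairing. The log2 fold change of ethanol against water was -0.13 in luciferase livers (SE 0.17, adjusted p = 0.731, limma) and -0.04 in LbNOX livers (SE 0.17, adjusted p = 0.941).

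In luciferase livers ethanol was followed by higher levels of several targets, while the receptor gene did not pass. Tsc22d3, Zbtb16 and Dusp1 rose, which is 3 of the 10 genes, where 4.62% of all tested genes rose and 7.75% passed in either direction. Every ethanol library was above every water library for those 3 and for Sgk1, Mt2 and Errfi1, 6 of 10 genes against 8.32% of all tested genes. On the recovered reads 5 of the 10 passed by edgeR and 6 by DESeq2, beside 7.73% and 11.9% of all tested genes. The median log2 fold change over the 10 genes was 0.97, beside 0.01 over all tested genes, and 9 of 10 were above 0 beside 50.6% of all. In LbNOX livers none of the 10 passed after ethanol, where 0.00737% of all tested genes did, and the median was 0.34 beside -0.0039 over all.

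**Figure D1:**
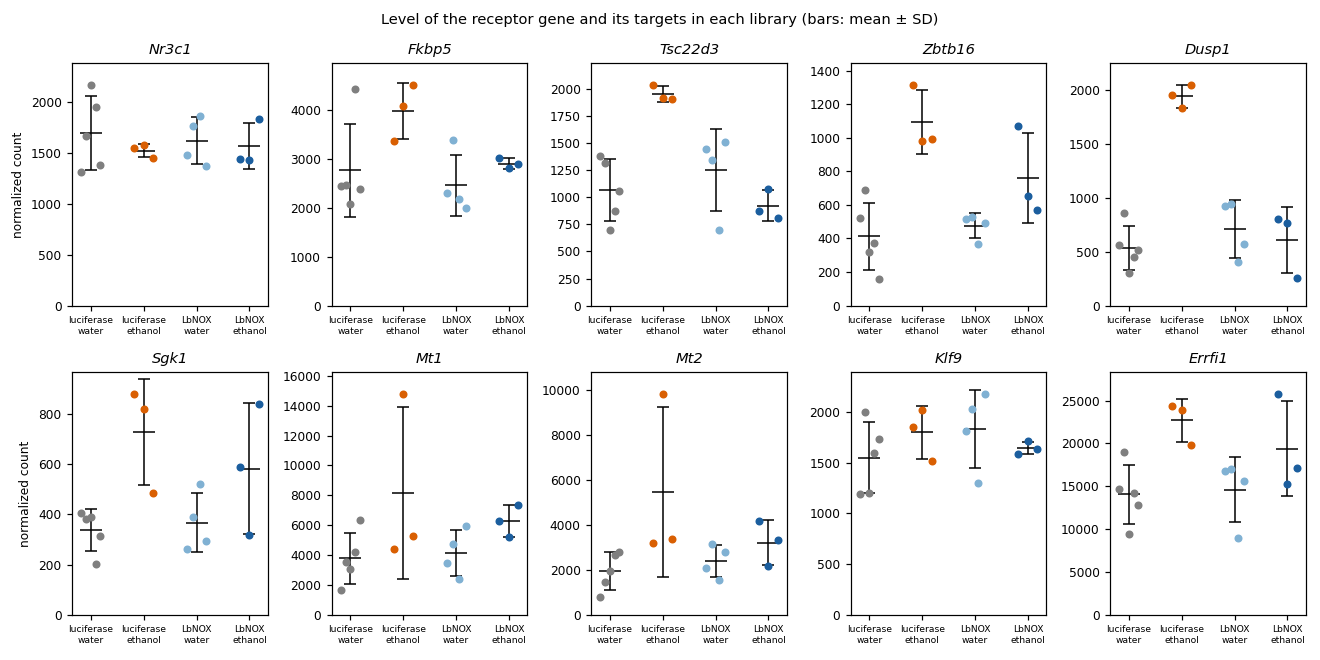
Normalized count (vertical axes, linear from 0) of each of the 10 genes in every library of the 4 groups, with the group mean and SD as black bars. Dusp1 and Tsc22d3 of the 3 luciferase ethanol libraries lie above all other 12 libraries, while Nr3c1 overlaps in all groups and 1 ethanol library, M11, carries the high mean of Mt1 and Mt2.

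Per kilobase of the principal transcript, the 10 genes differed widely in level. In luciferase livers after water the mean normalized count per kilobase was 6870 ± 3148 for Mt1, 4614 ± 1133 for Errfi1 and 3778 ± 1665 for Mt2 (SD, n = 5). Those of Fkbp5 (719 ± 246), Tsc22d3 (541 ± 147), Klf9 (345 ± 78.1), Dusp1 (269.7 ± 102) and Nr3c1 (264 ± 56.6) followed, and Sgk1 (138 ± 33.8) and Zbtb16 (80.6 ± 39.4) were lowest. Along this order the mean ± SD of neighbours overlapped except between Mt2 and Fkbp5 and between Nr3c1 and Sgk1. After ethanol the luciferase livers held Dusp1 at 977 ± 54.3 per kilobase, close to Tsc22d3 (988 ± 36.8) and Fkbp5 (1035 ± 150.1), and Zbtb16 at 214 ± 37.1, close to Nr3c1 (237 ± 10.3; SD, n = 3).

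Fkbp5 encodes an Hsp90 co-chaperone that lowers the receptor's affinity for hormone and is itself induced by the receptor (chromosome 17, 28399094 to 28517527, minus strand). Luciferase livers had 2449, 2480.3, 2089, 4448 and 2399 normalized counts after water and 3372, 4083 and 4519 after ethanol. A single water library, M4, stood within the ethanol range, and the other 4 lay below it. The difference was 0.57 on the log2 scale (SE 0.22, adjusted p = 0.141), and without M4 it was 0.75 and passed (adjusted p = 0.0111). It passed in only 1 of 25 alternatives, that without M4. LbNOX livers had 2299.6, 3391, 2182 and 2007 after water and 3023, 2812 and 2903 after ethanol, and their fold change was 0.27 on the log2 scale (SE 0.23, adjusted p = 0.674). All 3 LbNOX ethanol libraries were below all 3 luciferase ethanol libraries, with a log2 difference of -0.44 that did not pass (SE 0.25, adjusted p = 0.319).

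Of the transcriptional regulators among the targets, Tsc22d3 (GILZ), a leucine zipper protein that binds and restrains inflammatory transcription factors, lies on chromosome X (140539528 to 140600659, minus strand). Its normalized counts were 1385, 1317, 700, 874 and 1061 in luciferase livers after water and 2035, 1917 and 1902 after ethanol. No water library reached the ethanol range, and the 3 ethanol values lay within 1.07-fold of each other. The log2 fold change was 0.91 (SE 0.25, adjusted p = 0.0400). This call was near the threshold. It ended when any of M3, M4, M5, M7, M10, M11, M12 or M13 was left out (adjusted p of 0.0529 to 0.143). It also ended in a fit with neither variance trend nor robust variances (0.0593).

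In LbNOX livers Tsc22d3 stood at 1449, 1344.5, 695 and 1513 after water and at 877, 1079.8 and 805 after ethanol. Here the ethanol values lay inside the water range and differed from it by -0.39 (SE 0.27, adjusted p = 0.597). After ethanol, all LbNOX libraries were below all luciferase libraries by a log2 difference of -1.09 (SE 0.28, adjusted p = 0.0356). This call ended without M10, M11, M12, M13 or M15 (adjusted p of 0.0800 to 0.131) and with neither variance trend nor robust variances (0.0538).

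Zbtb16 (PLZF), a zinc finger repressor of transcription on chromosome 9 (48654297 to 48836222, minus strand), was the least abundant of the 10 per kilobase after water. Luciferase livers had 524, 686, 317, 375 and 158 normalized counts after water and 1313, 979.6 and 989.6 after ethanol, with no overlap. The rise was 1.56 on the log2 scale (SE 0.36, adjusted p = 0.0161), a 2.94-fold change. It no longer passed without M10 (1.42, adjusted p = 0.0925) or when only the luciferase groups were fitted (adjusted p = 0.0636).

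LbNOX livers had Zbtb16 at 518, 527, 365 and 495 after water and at 1067, 653 and 567 after ethanol. It was the only one of the 10 genes whose LbNOX ethanol libraries were all above the LbNOX water libraries, where 5.42% of all tested genes were. Its log2 fold change of 0.64 did not pass (SE 0.38, adjusted p = 0.542). After ethanol, M13 (1067) lay above 2 of the 3 luciferase libraries, and the constructs differed by -0.56 (SE 0.40, adjusted p = 0.454).

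Klf9, a Krüppel-like factor that represses transcription, lies on chromosome 19 (23141226 to 23168134, plus strand) and showed little difference. Its counts in luciferase livers were 1193, 2005, 1203, 1599.8 and 1734 after water and 1857, 2025 and 1517 after ethanol, which overlapped. Ethanol against water gave 0.24 on the log2 scale (SE 0.19, adjusted p = 0.543). LbNOX livers had 1815, 2031, 1299 and 2176 after water and 1589, 1710.2 and 1632 after ethanol (-0.13, SE 0.20, adjusted p = 0.833).

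Dusp1, a phosphatase that switches off MAP kinases, gave the largest change of the 10 genes (chromosome 17, 26505590 to 26562128, minus strand). Luciferase livers had 560.4, 856, 304, 448 and 515 normalized counts after water and 1955, 1832 and 2048 after ethanol. The lowest ethanol library was more than double the highest water library. The rise was 1.93 on the log2 scale, or 3.82-fold (SE 0.39, adjusted p = 0.0065), and it passed with each of the 15 libraries left out in turn.

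LbNOX livers had Dusp1 at 929, 941, 406 and 573 after water and at 804, 763 and 259 after ethanol, with overlap between the groups and a fold change of -0.31 on the log2 scale (SE 0.40, adjusted p = 0.799). After ethanol the LbNOX livers were lower than the luciferase livers by 1.84 on the log2 scale (log2 difference -1.84, SE 0.43, adjusted p = 0.0234), with no overlap. This call ended without M10, M12 or M15 (adjusted p of 0.0745 to 0.0982) and when only the ethanol groups were fitted (0.0595). The value without M15, the lowest LbNOX library, was -1.31.

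Sgk1, a serum- and glucocorticoid-inducible kinase that acts on ion transporters and on Nedd4l, lies on chromosome 10 (21882184 to 21999903, plus strand). Its normalized counts in luciferase livers were 406, 381, 389, 204 and 313 after water and 879, 821 and 485 after ethanol. The groups did not overlap, and M12 was well below the other ethanol libraries. The log2 fold change of 1.10, or 2.14-fold, fell just short of the threshold in limma (SE 0.33, adjusted p = 0.0540) and passed by edgeR (0.0469) and DESeq2 (0.0111) on the recovered reads. It passed in 8 of 25 alternatives, and with a library left out limma's adjusted p reached 0.225. LbNOX livers had 263, 388, 523 and 294 after water and 588, 317 and 840.4 after ethanol, a log2 fold change of 0.61 with overlap (SE 0.34, adjusted p = 0.522).

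Errfi1 (MIG6), an inhibitor of the EGF receptor kinase on chromosome 4 (150853919 to 150868892, plus strand), had no overlap in luciferase livers and no call in limma. Luciferase livers had 14719, 18991, 9470.4, 14256 and 12759 after water and 24402, 23859 and 19825 after ethanol. The ethanol libraries were all above the water libraries, though by little for M12 against M2. The log2 fold change of 0.72 did not pass in limma (SE 0.25, adjusted p = 0.0987) and passed by DESeq2 (0.0438) and without M8 (0.0484). These were the 2 of 25 alternatives in which it passed, and with a library left out limma's adjusted p reached 0.280. LbNOX livers had 16730, 17038, 8990.5 and 15643 after water and 25738, 15316 and 17103 after ethanol (0.42, SE 0.26, adjusted p = 0.565), where M13 alone exceeded the water range by a wide margin.

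Tsc22d3, Zbtb16, Dusp1, Sgk1, Mt2 and Errfi1 were each higher in every luciferase ethanol library than in any luciferase water library. Sequence just upstream of a start site is shown for Dusp1, Sgk1 and Errfi1, where it held a full glucocorticoid or cyclic AMP element, searched on both strands. Those of Tsc22d3 and Mt2 held neither, and none was at hand for Zbtb16. The genes shown were thus picked by these matches. RefSeq windows of 250 bases upstream of each start (GRCm38.p6) were at hand for 8 of the 10 genes, in 16 windows. A full glucocorticoid element (AGAACA, any 3 bases, then TGTTCT) was in 3 of 32851 such windows of all genes (0.00913%), and 1 of the 3 was a Sgk1 window. The cyclic AMP element TGACGTCA was in 1.55% of all windows and in 2 windows of these genes, those of Dusp1 and Errfi1. Capitals mark the matched element in each of the following.
Sgk1 (chr10:21993661-21993755, plus strand): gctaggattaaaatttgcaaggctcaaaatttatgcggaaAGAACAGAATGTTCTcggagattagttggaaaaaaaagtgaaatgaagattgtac
Dusp1 (chr17:26508568-26508655, minus strand): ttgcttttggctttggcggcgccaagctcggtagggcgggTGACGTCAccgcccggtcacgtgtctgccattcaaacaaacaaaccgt
Errfi1 (chr4:150854979-150855066, plus strand): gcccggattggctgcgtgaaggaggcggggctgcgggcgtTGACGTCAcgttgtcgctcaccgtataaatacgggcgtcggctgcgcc
The glucocorticoid element lay at -189 to -175 from 1 of the 6 annotated Sgk1 starts, and a table of genes does not tell which start was used. The cyclic AMP elements lay at -143 to -136 of the Dusp1 start and at -51 to -44 of an Errfi1 start. The window of the other annotated Errfi1 start held no such element, and which of these starts was used is not known either. The hexamer AGAACA or its reverse TGTTCT was in 4 windows of these genes and in 16.1% of all windows, a Tsc22d3 window (at -185 to -180) among them. A match is a description of the letters and says nothing of binding in these livers.

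Mt1 and Mt2, metallothioneins that bind zinc and other metals and are induced by metals as well as by glucocorticoids, lie on chromosome 8. Their RefSeq starts were 6471 bases apart, while the positions given next are from GENCODE. Mt1 (94179082 to 94180327, plus strand) had 1658, 3543, 3061, 4234 and 6362 normalized counts in luciferase livers after water and 4427, 14775 and 5297 after ethanol. Mt2 (94172664 to 94173568, plus strand) had 771, 1448, 1956, 2671 and 2807 after water and 3195, 9803 and 3346 after ethanol. In both genes M11 was far above all other libraries, and the Mt1 groups overlapped while the Mt2 groups did not.

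The log2 fold change in luciferase livers was 1.03 for Mt1 (SE 0.43, adjusted p = 0.184) and 1.43 for Mt2 (SE 0.44, adjusted p = 0.0635). Without M11 they were 0.49 (adjusted p = 0.604) and 0.90 (adjusted p = 0.285). With all libraries Mt2 passed by edgeR (0.0451) and by DESeq2 (0.00616). LbNOX livers had Mt1 at 3442, 4766, 2404 and 5959 after water and at 6303, 5197 and 7359 after ethanol, 0.67 higher on the log2 scale (SE 0.45, adjusted p = 0.593). Their Mt2 counts were 2075, 3136, 1559 and 2792 after water and 4149.9, 2157 and 3313 after ethanol (0.42, SE 0.46, adjusted p = 0.753). Both sets overlapped.

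The ratio of Mt1 to Mt2 counts ran from 1.57 to 2.45 in luciferase livers after water and from 1.39 to 1.58 after ethanol, and from 1.52 to 2.13 and 1.52 to 2.41 in LbNOX livers. Across the 15 libraries the log2 values of Mt1 and Mt2 correlated at r = 0.933, the highest of any pair of the 10 genes. Next were Tsc22d3 with Dusp1 (0.866) and Zbtb16 with Errfi1 (0.819), and the lowest was Nr3c1 with Tsc22d3 (-0.59). These are descriptions over libraries that share the 4 groups and the same scaling. The core of the metal response element (TGCACNC or TGCGCNC, either strand) was in the upstream windows of Mt1 and Mt2 and in 21.4% of all windows.

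**Figure D2:**
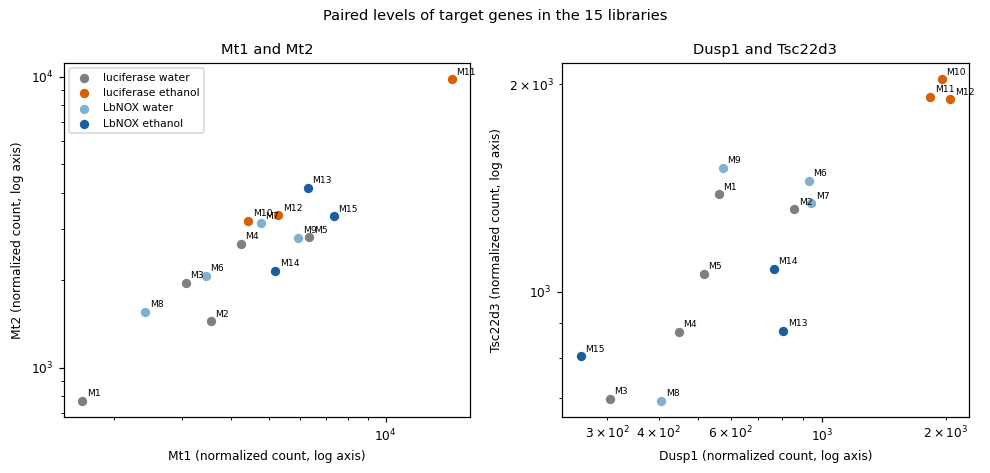
Each point is 1 of the 15 libraries, placed by the normalized counts of Mt1 and Mt2 (left) and of Dusp1 and Tsc22d3 (right) on log axes. M11 stands alone at the top for the metallothioneins (14775 and 9803), while all 3 luciferase ethanol libraries sit together at the upper right for Dusp1 and Tsc22d3 and M3, M8 and M15 sit at the lower left.

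Set side by side, the comparisons differed in how many of the 10 genes passed. After water, LbNOX and luciferase livers differed in none of them by limma, edgeR or DESeq2, none had an unadjusted p below 0.05, and every pair of groups overlapped. Over all tested genes, 0% passed by limma and by edgeR and 0.133% by DESeq2, 3.24% had an unadjusted p below 0.05, and 0.936% did not overlap. After ethanol, Tsc22d3 and Dusp1 were lower in LbNOX livers, 2 of 10 where 3.82% of all tested genes were lower and 6.06% passed in either direction. Fkbp5, Tsc22d3 and Dusp1 did not overlap, 3 of 10 beside 15.4% of all tested genes with every LbNOX library lower. The comparison of ethanol with water in luciferase livers and that of the constructs after ethanol share M10 to M12, so their values are not independent.

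Within LbNOX livers, ethanol against water passed for none of the 10 genes by limma, edgeR or DESeq2 and none had an unadjusted p below 0.05. Among all tested genes 0.00737% passed by limma and by edgeR, 2.08% by DESeq2, and 11.6% had an unadjusted p below 0.05. Tsc22d3, Dusp1, Klf9 and Nr3c1 were below 0 on the log2 scale and the other 6 above it.

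A direct test asked whether the ethanol effect differed between the constructs. None of the 10 genes passed in limma or edgeR, where 1.67% and 1.62% of all tested genes did. Dusp1 came nearest, with a lower ethanol effect in LbNOX livers (log2 difference -2.24, SE 0.56, adjusted p = 0.0610), followed by Tsc22d3 (-1.30, SE 0.37, adjusted p = 0.0960). These were the 2 genes with an unadjusted p below 0.05, beside 14.6% of all tested genes, and the 2 that passed by DESeq2 (adjusted p of 0.00605 and 0.0148), beside 4.66% of all. Both also passed without M8 (0.0293 and 0.0127) and without M3 and M8 together (0.0355 and 0.00692), and Dusp1 passed without M2 (0.0484). In all, Dusp1 passed in only 4 of 24 alternatives and Tsc22d3 in only 3 of 24. With a library left out, limma's adjusted p reached 0.146 for Dusp1 and 0.234 for Tsc22d3. The differences for Mt2 (-1.01, SE 0.64), Zbtb16 (-0.92, SE 0.52), Sgk1 (-0.49, SE 0.47), Klf9 (-0.37, SE 0.28), Mt1 (-0.36, SE 0.62), Errfi1 (-0.31, SE 0.36) and Fkbp5 (-0.30, SE 0.32) were within 2 SE of 0 and do not show that the effects were alike.

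**Figure D3:**
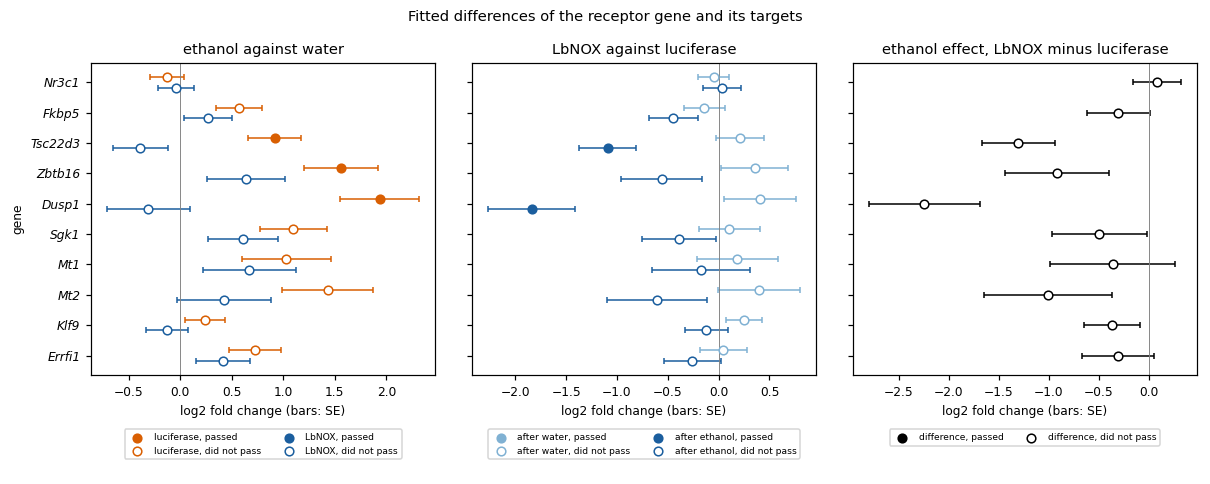
Log2 fold change with its SE (horizontal axes) for each gene in the 5 comparisons, filled where limma's adjusted p was below 0.05 and open where it was not. Tsc22d3, Zbtb16 and Dusp1 are filled for ethanol in luciferase livers and Tsc22d3 and Dusp1 for LbNOX against luciferase after ethanol; no point is filled for LbNOX after ethanol against water, for the constructs after water or for the difference.

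Few of the genes that work with the receptor passed, and those that did went in both directions. Of 23 genes for its chaperones, hormone metabolism and coregulators, 2 rose and 2 fell after ethanol in luciferase livers, with a median log2 fold change of 0.02; of all tested genes 4.62% rose and 3.13% fell. The coactivator Ncoa1 went from 546 ± 114 to 2254 ± 560 normalized counts (SD, n = 5 and 3; log2 2.03, adjusted p = 2.28e-05) and passed with every library left out in turn. The chaperone Hsp90aa1 fell by 0.70 (adjusted p = 0.0471) and Stip1, which links Hsp70 to Hsp90, fell by 0.51 (adjusted p = 0.0341). The call for Hsp90aa1 ended in 10 of the 15 fits with a library left out, and that for Stip1 without M1, M2, M10, M11 or M12 (up to 0.128) and when only the luciferase groups were fitted (0.111). In LbNOX livers none of the 23 passed by limma, beside 0.00737% of all tested genes. The ethanol effect on Ncoa1 was lower in LbNOX livers by a tested difference of -2.06 (adjusted p = 0.00200).

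Of 25 other genes that glucocorticoids are known to induce, 7 rose and none fell after ethanol in luciferase livers, beside 4.62% of all genes that rose. Their median log2 fold change was 0.39. G6pc, the last enzyme of glucose release, rose by 3.57 (adjusted p = 0.000367), Igfbp1, which binds insulin-like growth factors in blood, by 2.22 (0.00392), the mTORC1 inhibitor Ddit4 by 1.65 (0.000108) and the stress gene Gadd45b by 1.20 (0.00524). These 4 passed with each library left out in turn, and the list's count was 5 to 8. By limma none of the 25 passed in LbNOX livers (median -0.02), beside 0.00737% of all tested genes. There 1 passed by DESeq2 and 1 by limma without M3 and M8, beside 2.08% and 1.06% of all tested genes. For G6pc the difference of the effects passed (-3.74, adjusted p = 0.0130) but not without M10 or M15 (up to 0.0552).

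Genes that glucocorticoids are known to lower were few in the table at testable levels, 9 of 12. The chemokine Cxcl10 (-2.50, adjusted p = 0.00168) and the interferon response factor Irf1 (-0.98, adjusted p = 0.00392) fell in luciferase livers after ethanol. That is 2 of the 9, beside 3.13% of all tested genes that fell. None of the 9 rose, beside 4.62% of all, and the median was -0.98. Ccl2 was lower without passing (-1.68, adjusted p = 0.0547). Tnf did not pass either (adjusted p = 0.0713). It was listed at only 2.33 to 2.49 in M10 to M12, near the floor, so its fold is not given. The summed Kupffer cell and macrophage markers ran from 1102 to 1467 in the same ethanol libraries and from 1317 to 3364 in the water libraries, and the part of those cells in these values was not tested. In LbNOX livers none of the 9 passed by limma, beside 0.00737% of all tested genes. The difference of the effects passed for Cxcl10 (2.82, adjusted p = 0.0281) and Irf1 (1.29, adjusted p = 0.0257), each of which was lost when 1 of several libraries was left out (up to 0.0953 and 0.0947).

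Of 14 genes of zinc and metal handling, listed for the metallothioneins, 2 rose and 3 fell in luciferase livers after ethanol, with a median of -0.10, beside 4.62% and 3.13% of all tested genes. The exporter Slc30a10 rose by 2.58 (adjusted p = 0.00243) and the importer Slc39a6 by 2.27 (0.00524), both in every fit with a library left out. The importer Slc39a4 (-0.65, adjusted p = 0.0256) and the transporter Slc30a5 (-0.62, adjusted p = 0.0288) fell. The call for Slc39a4 ended without M1 or M10, that for Slc30a5 without M2, M3, M10, M11 or M12, and both in a fit of the luciferase groups alone (0.0702 and 0.0939).

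Of 11 immediate early genes tested, a class to which Dusp1 is also assigned, none was higher and 1, Atf3, was lower in luciferase livers after ethanol by limma, beside 4.62% and 3.13% of all tested genes. Atf3 was not called by edgeR (adjusted p = 0.114), without M3 and M8 together (0.0612) or with any of M1, M3, M10 and M11 left out (0.0620 to 0.163). DESeq2 called 3 of the 11 lower, beside 745 of all 13570 tested genes. Atf3 was listed at 0 in M10 and M11, and also in the LbNOX water library M6, so no fold is given. Jun (-0.68, adjusted p = 0.0679) and Klf6 (-1.27, adjusted p = 0.0767) did not pass by limma and passed by DESeq2 (0.0292 and 0.0132). Nr4a1 did not pass (adjusted p = 0.202) and was listed at 0 in M3 and M4, so its fold is not given either. Of 12 clock genes, which matter here because Klf9 and other targets cycle with the day, Hlf (1.24, adjusted p = 0.00130) and Npas2 (2.92, 0.0113) rose and Dbp (-1.90, 0.0278) and Nr1d2 (-0.51, 0.0244) fell, 2 each of 12 beside 4.62% and 3.13% of all tested genes. Npas2 did not pass without M10 (0.0926), and the count of clock genes that fell was 0 to 2 with a library left out. After water Npas2 was listed at 3.00 to 14.1 in luciferase livers and at 0.781 to 4.62 in LbNOX livers. Its folds in both therefore rest on values near the floor. LbNOX livers had differences of similar size that did not pass by limma and passed by DESeq2: 3.63 for Npas2 (adjusted p = 0.0716; DESeq2 0.000523), -1.78 for Dbp (0.182; DESeq2 0.0401) and -0.56 for Nr1d2 (0.127; DESeq2 0.00779). Hlf was at -0.34 there (adjusted p = 0.547).

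Closely related genes did not move as the targets did in every family. Of 24 paralogues and partners tested, 5 rose and 3 fell in luciferase livers after ethanol, beside 4.62% and 3.13% of all tested genes. None passed in LbNOX livers by limma, beside 0.00737% of all tested genes. Tsc22d2 passed there by DESeq2 (0.74, adjusted p = 0.0165), beside 2.08% of all tested genes. In the Tsc22d family Tsc22d1 (1.12, adjusted p = 0.00155) and Tsc22d2 (1.22, adjusted p = 0.000666) rose beside Tsc22d3, and Tsc22d4 did not pass (0.20, adjusted p = 0.677). In the Sgk family Sgk2 fell by 1.03 (adjusted p = 0.00107), opposite in sign to the 1.10 of Sgk1, and Sgk3 was near 0 (-0.07, adjusted p = 0.917).

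The Sgk2 counts were 605, 622, 645, 853 and 479 in luciferase livers after water and 293, 358 and 280.4 after ethanol, with no overlap. LbNOX livers had 848, 663, 718 and 766 after water and 822, 741 and 787 after ethanol, and the difference of the effects passed (1.10, adjusted p = 0.0274), though not without M7, M10, M12, M13 or M15. In the Klf family Klf10 rose by 2.16 (adjusted p = 0.000146, limma) and Klf15 by 0.91 (0.0374), where Klf9 and Klf13 did not pass. The ethanol effect on Klf10 was lower in LbNOX livers by a tested difference of -2.32 (adjusted p = 0.00810). In the Dusp family Dusp10 fell (-1.04, adjusted p = 0.0218), opposite in sign to Dusp1, and the other 6 tested paralogues did not pass. Nedd4l, a ubiquitin ligase that Sgk1 phosphorylates, rose by 0.98 (adjusted p = 0.0287), and Erbb3, a receptor of the EGF receptor family, fell by 0.87 (adjusted p = 0.00689).

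**Figure D4:**
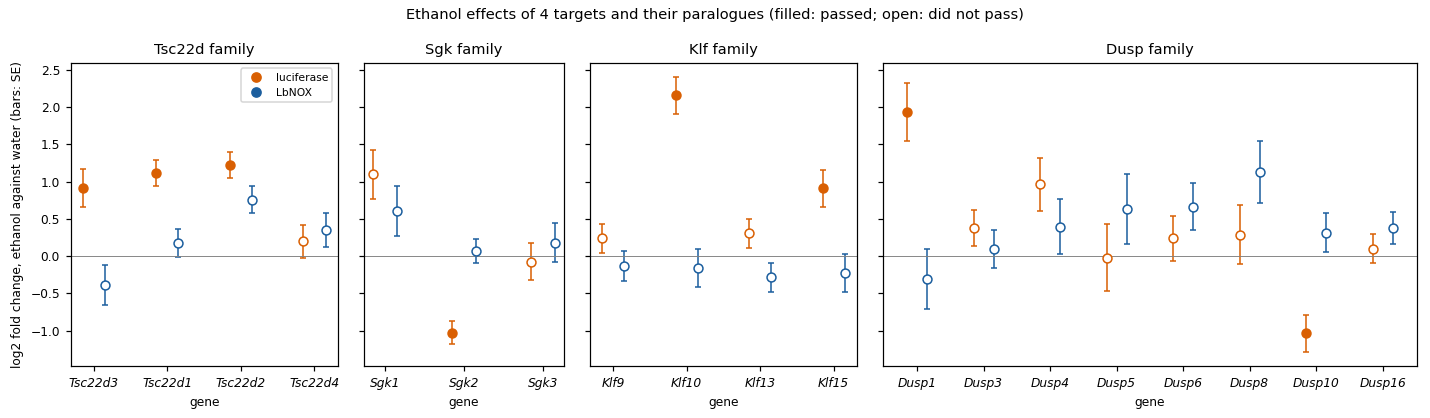
Log2 fold change of ethanol against water with its SE (vertical axis) in luciferase and LbNOX livers for 4 targets, each first in its panel, and their tested paralogues; filled points passed limma's test. In luciferase livers Tsc22d1 and Tsc22d2 lie near Tsc22d3 (1.12, 1.22 and 0.91), Sgk2 lies below 0 while Sgk1 lies above, and Klf10 (2.16) lies above Klf9 (0.24).

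Among 9497 tested genes with a mean of 100 or more, the gene whose log2 values followed each target most closely over the 15 libraries was named as a description. The highest correlation was 0.940 for Tsc22d3 with the mitochondrial carrier Slc25a11, followed by Nfic (0.932). Dusp1 went with Pdhb, a pyruvate dehydrogenase subunit (0.935), and Rgs16 (0.927). Klf9 followed the glutamine transporter Slc38a3 (0.908), Zbtb16 followed Ergic1 (0.899), Nr3c1 followed the nucleoporin Ranbp2 (0.894) and Errfi1 followed the transcription factor Cebpd (0.889). The closest genes to Sgk1 (Thbd, 0.874), Fkbp5 (Colec12, 0.857), Mt1 (Kin, 0.846) and Mt2 (Slc41a1, 0.846) reached lower values. All points share the 4 groups, so a difference between groups raises r.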

How the data were processed

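Liver RNA was made into libraries with the KAPA mRNA HyperPrep chemistry (labels' protocols). Salmon 1.5.1, DESeq2 1.30.1 and the mm10 build appear in the submitters' processing notes, with no role given. The table deposited by the authors is a signal: normalized counts, each library scaled by a single factor, per the file headers and the values. Reads were recovered from the smallest step, and 100% of 244950 values lay within 0.001 of whole reads. Groups came from the table's header, whose columns carry no replicate number.

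One limma 3.58.1 fit (R 4.3.3, trend and robust variances) of log2(normalized count + 1) held the 4 groups, over genes that reached 10 in 3 or more libraries, and gave 5 contrasts. Fold changes are on that scale. Benjamini-Hochberg adjustment ran over all 13570 genes, and an adjusted p below 0.05 passed. A script tested the fit on simulated data. The alternatives were edgeR 4.0.16 and DESeq2 1.42.0 on recovered reads, other filters, pseudocounts and scalings, only the groups compared, and libraries left out. On recovered reads edgeR called 1049 genes for ethanol in luciferase livers, where limma called 1052. Positions are from GENCODE vM21 (GRCm38).

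The 10 genes and all lists were chosen with earlier results of these data known. Named list genes are up to 4 per list with the smallest p for ethanol in luciferase livers. A gene that this rule chose is not reported here. Nedd4l, Erbb3, Nkg7 and the paralogues outside that rule were added after their values were seen.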

Additional observations from a re-analysis of the deposited data

Results flagged for a closer look

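Fkbp5 in library M4 stood apart among the 5 luciferase livers after water. Its gap to the nearest other library was 0.834 of the group's range, above Dixon's critical value for 5 samples. M4 had 4448 normalized counts, and the other 4 had 2089 to 2480.3. Of the 20 groups of 4 or 5 libraries examined over the 10 genes this was the only one, and chance gives about 1 in 20.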

How the results depend on the processing

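No paired analysis was possible because the table's columns carry no replicate number. Over 25 alternatives, 1240 values of the 10 genes in 5 comparisons were recomputed: 1197 stayed on their side of the threshold, 21 calls ended, 22 were gained, and no called value turned its sign. For ethanol in luciferase livers, 5 genes passed by edgeR and 6 by DESeq2 in place of 3, and 1 to 5 with a library left out. For LbNOX against luciferase after ethanol, 1 passed in place of 2 with neither variance trend nor robust variances. When only the ethanol groups were fitted 1 passed, and 0 to 2 passed with a library left out. For the difference of the effects, 2 passed by DESeq2 and 2 without M3 and M8 in place of 0, and 0 to 2 with a library left out. No gene passed in the other 2 comparisons under any alternative. Among all genes, ethanol in luciferase livers gave 1621 calls by DESeq2, 614 with only the luciferase groups and 446 without M10 in place of 1052. The ethanol groups held 3 libraries each, which limits all calls near the threshold.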
